A study of Culter alburnus with 6 samples.

Results

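The 100 loci described here had lower normalised read counts in each of 3 libraries from cryopreserved Culter alburnus, a carp-like fish of fresh water, than in any of 3 control libraries. They were chosen by measured values, from 28228 gene loci in all. Counts were divided by the median-of-ratios size factor of their library, which gives the normalised counts used throughout. Loci were kept if their control mean was between 50 and 15000 and their highest control was below 4 times the lowest, which left 15994. These were ranked by the ratio of the lowest control to the highest cryopreserved value, each with 5 added, and the first 100 were taken. Since the contrast between the groups chose the loci, their difference between the groups is a description and is not tested here.

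The study vitrified embryos at the tail-bud stage and rewarmed them either in a water bath or with a laser and gold nanorods. Its RNA sequencing asked how transcription differs in animals that come from such embryos. Control libraries carry the source label WT and the treatment control, and the other 3 carry the source label treat and a treatment of embryo cryopreservation. The labels give embryos as the material, whereas the design text speaks of larvae, and neither says which warming method the 3 cryopreserved libraries had, how many animals went into a library or how old they were. Whether the 3 libraries of a group are separate batches of animals is not stated, so the spread between them may be technical. Library totals lay between 26611022 and 30795972 counts. Size factors were 1.11, 1.07 and 0.890 in controls 1, 2 and 3 and 0.863, 1.13 and 1.14 in cryopreserved 1, 2 and 3. Control 3 and cryopreserved 1 thus had the highest totals and the lowest size factors.

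Vitrification turns a solution into a glass without ice crystals, by means of high concentrations of cryoprotectants and rapid cooling. On slow warming the glass can crystallise, and fish embryos are hard to preserve because they are large, rich in yolk and surrounded by membranes that let little water or cryoprotectant through. Gold nanorods absorb laser light and release it as heat, which speeds up warming. The loci carry locus tags alone. All 28228 tags occur in the annotation of assembly ASM4018292v1, but the table of it used here repeats the tag as the symbol for all 28228. No gene name or function is therefore given for the 100 loci, and the planned marker genes of tissues and of stress responses could not be looked up.

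The difference was uneven between the cryopreserved libraries, and cryopreserved 1 had the lowest values for most of the loci. Relative to the control mean of each locus, the median log2 value over the 100 loci was -1.51 in cryopreserved 1, -0.96 in cryopreserved 2 and -0.90 in cryopreserved 3. The same medians over the 15994 loci within the limits were -0.08, -0.02 and -0.08. Cryopreserved 1 held the lowest of the 6 values for 71 of the 100 loci, cryopreserved 2 for 19 and cryopreserved 3 for 10. The highest of the cryopreserved values came from cryopreserved 3 for 49 loci, from cryopreserved 2 for 40 and from cryopreserved 1 for 11. These places were not counted over all loci within the limits. There, cryopreserved 1 lay below every control for 34.1%, cryopreserved 2 for 23.2% and cryopreserved 3 for 18.9%. Cryopreserved 1 was thus low more often beyond the 100 loci as well, but its values spread more widely in both directions. Its quartiles over the loci within the limits were -0.69 and 0.46. Those of cryopreserved 2 were -0.36 and 0.26, and those of cryopreserved 3 were -0.31 and 0.15. In bulk samples of this kind, fewer cells that express a locus and less RNA of it per cell cannot be told apart.

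**Figure D1:**
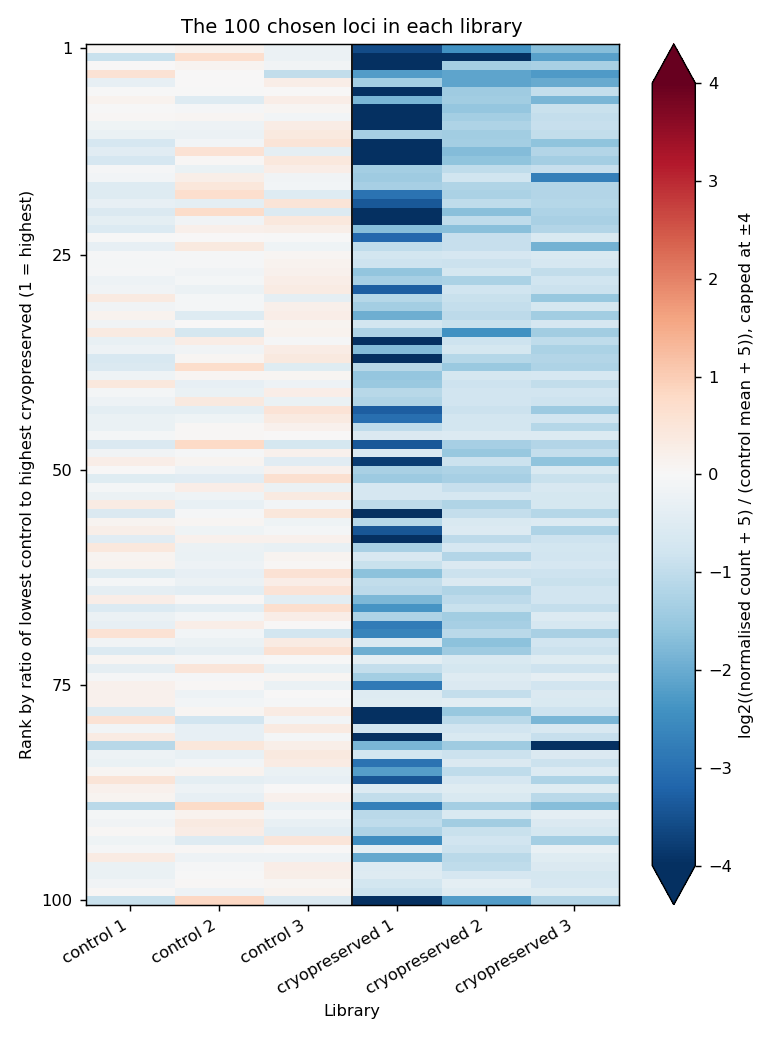
Each row is 1 of the 100 chosen loci, ordered by the ratio that chose them, and each column is a library. The colour gives the log2 of the normalised count relative to the mean of the 3 controls, each with 5 added. Cryopreserved 1 holds most of the darkest cells, with 40 loci below 0.25 times the control mean, against 6 in cryopreserved 2 and 5 in cryopreserved 3.

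Together the 100 loci took a small share of each library. It was 0.177%, 0.237% and 0.201% of all counts in controls 1, 2 and 3, and 0.0216%, 0.100% and 0.104% in cryopreserved 1, 2 and 3. The groups did not overlap in this share, which follows largely from the choice of loci and is no separate result. Cryopreserved 1 lay well below the other cryopreserved libraries. Loci with many counts weigh most in this share. The 4 with the highest control means had 0, 49.8, 9.27 and 0 normalised counts in cryopreserved 1. The gap of that library thus leans on a few loci, and the share was not computed without them. The mean share was 0.205% ± 0.0304 for controls and 0.0752% ± 0.0464 for cryopreserved libraries (SD, n = 3 each).

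No locus of the 100 passed a test across all loci. With edgeR's quasi-likelihood test, 0 of 21846 tested loci (0%) were lower in the cryopreserved group at a Benjamini-Hochberg adjusted p under 0.05, and so were 0 of the 100. The lowest edgeR adjusted p among the 100 was 0.999955. DESeq2 and limma-voom likewise called 0 lower loci, and the lowest DESeq2 adjusted p among the 100 was 0.247. At an unadjusted p under 0.05 edgeR had 43 lower loci (0.197% of those tested), 17 of them among the 100. DESeq2 had 132 of 25538 tested loci, with 39 among the 100. With limma-voom there were 44 of 21846, with 23 among the 100. As the same contrast chose the loci, nothing is read from these numbers. The edgeR count of 43 was 45, 51 and 97 without controls 1, 2 and 3 and 67, 81 and 149 without cryopreserved 1, 2 and 3. These fits tested 22301 to 22365 loci. The 17 became 11, 10 and 13 without controls 1, 2 and 3 and 21, 12 and 7 without cryopreserved 1, 2 and 3.

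The fitted log2 fold change, cryopreserved over control, had a median of -1.23 over the 100 loci, with quartiles at -1.70 and -0.90 and a range from -3.98 to -0.47. Over all tested loci the median was 0.02. The fitted change exceeded 2-fold for 67 of the 100, as it did in the same direction for 2.83% of all tested loci. Without cryopreserved 1 the median was -0.97 and 47 of the 100 loci were fitted at more than 2-fold lower. The median standard error of a single locus among the 100 was 0.64.

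The ratio that ranked the loci fell off quickly. It was 2.74 for the first locus, at least 2 for 5 loci and at least 1.5 for 23, with a median of 1.35 over the 100. Of the 15994 loci within the limits, 358 (2.24%) had a ratio above 1, that is, every cryopreserved value below every control. The last loci inside the list were ABG768_019311, with controls at 432, 363 and 466 and cryopreserved values at 229.5, 302 and 302.5, and ABG768_018664, with controls at 109, 379 and 139 and cryopreserved values at 0, 40.7 and 90.6. Their ratios were both 1.20. The first loci outside were ABG768_022800, with controls at 92.2, 54.9 and 60.7 and cryopreserved values at 5.80, 45.1 and 44.0, and ABG768_022548, with controls at 43.4, 33.5 and 103 and cryopreserved values at 11.6, 17.7 and 27.3. Their ratios were 1.20 and 1.19, so the limit of the list falls at no step in the values.

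ABG768_011782 had the highest ratio of all. Its normalised counts were 201, 215 and 163 in controls 1, 2 and 3 and 11.6, 31.9 and 56.3 in cryopreserved 1, 2 and 3. Every control lay well above every cryopreserved value, and cryopreserved 1 was the lowest of its group. The means were 193 ± 27.0 and 33.2 ± 22.4 (SD, n = 3 each), with a fitted log2 fold change of -2.50 ± 0.66 (SE). ABG768_026654, second in the ranking, had 43.4, 138 and 70.8 in the controls and 0, 0 and 14.9 in the cryopreserved libraries. It was the single locus of the 100 at 0 in cryopreserved 2. If every deposited count were an independent fragment, a count of 0 would allow up to 3 counts, which is 3.48 normalised counts in cryopreserved 1 and 2.66 in cryopreserved 2. Low counts in the table were more often even than odd, so the true limit may be higher.

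**Figure D2:**
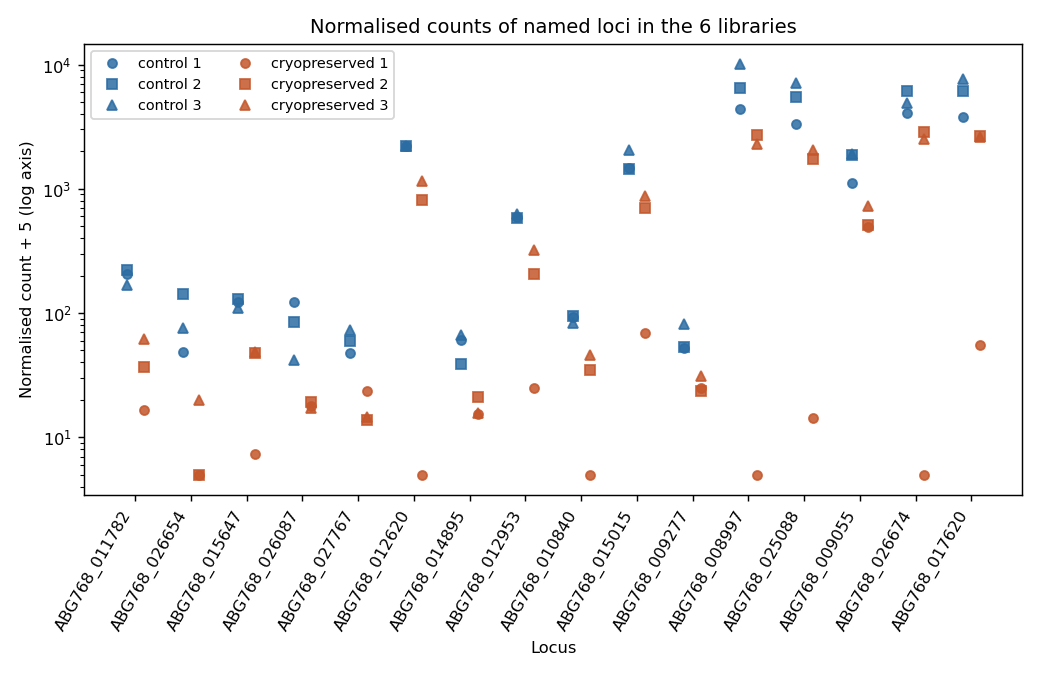
Normalised counts with 5 added, on a log axis, for the 12 loci with the highest ratio, the 4 with the highest control mean and the 4 with the smallest edgeR p, which overlap and make 16 in all. Colours mark the groups and symbols the replicate number. In many loci the circle of cryopreserved 1 sits far below the other cryopreserved values, down to 0 counts, which is plotted at 5.

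Some of the leading loci were low to a like degree in all 3 cryopreserved libraries. ABG768_026087 had 118, 80.1 and 37.1 in the controls and 12.8, 14.2 and 12.3 in the cryopreserved libraries, so that the spread lay in the controls. ABG768_014895 had 55.2, 33.5 and 61.8 in the controls and 10.4, 15.9 and 10.6 in the cryopreserved libraries. In both, cryopreserved 1 lay close to cryopreserved 3. ABG768_009277 had 47.0, 48.4 and 76.4 against 19.7, 18.6 and 26.4, and ABG768_027767 had 42.5, 54.9 and 67.4 against 18.5, 8.85 and 9.67. In ABG768_027767 cryopreserved 1 was the highest of its group. Fitted log2 fold changes were -2.56 ± 0.71 for ABG768_026087, -1.39 ± 0.65 for ABG768_009277 and -2.14 ± 0.72 for ABG768_027767 (SE). These loci rest on small numbers of reads, with fewer than 30 normalised counts in each cryopreserved library.

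ABG768_009055 had the smallest edgeR p of the 100 loci and larger counts. Its values were 1112, 1847 and 1905 in the controls and 490.3, 505 and 725 in the cryopreserved libraries. Cryopreserved 1 and 2 lay close together and the lowest control was above the highest cryopreserved value by more than the distance between the cryopreserved libraries. The fitted log2 fold change was -1.48 ± 0.34 (SE).

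In other leading loci cryopreserved 1 was at or near 0 while cryopreserved 2 and 3 were lower by a smaller factor. ABG768_012620 had 2191, 2185 and 2214 in the controls, a spread of 15.2 (SD, n = 3), and 0, 814 and 1144 in the cryopreserved libraries. The 3 controls were almost equal, and cryopreserved 2 and 3 together were 2.24-fold below their mean. ABG768_012953 had 592, 575 and 625 in the controls and 19.7, 202 and 317 in the cryopreserved libraries. ABG768_015647 had 118, 125 and 106 against 2.32, 42.5 and 44.0, ABG768_010840 had 87.7, 89.4 and 77.5 against 0, 30.1 and 41.3, and ABG768_015015 had 1476, 1434 and 2030 against 63.8, 691 and 862. In each of these loci the order within the group was the same, with cryopreserved 1 far below cryopreserved 2 and cryopreserved 3 highest.

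The 4 loci with the most control counts all belonged to this kind. ABG768_008997 had 4408, 6525 and 9998 in the controls and 0, 2696 and 2298 in the cryopreserved libraries. ABG768_026674 had 4055, 6110.4 and 4865 in the controls and 0, 2833 and 2491 in the cryopreserved libraries. In these, cryopreserved 1 held no read at loci with over 1000 normalised counts in each other library. ABG768_017620 had 3763, 6158 and 7681 against 49.8, 2649 and 2587, and ABG768_025088 had 3305, 5479 and 7092 against 9.27, 1736 and 2065. Fitted log2 fold changes of these loci had wide errors, with -1.47 ± 1.47 for ABG768_026674 and -2.04 ± 1.51 for ABG768_008997 (SE). Without cryopreserved 1 they were -0.89 for ABG768_026674, -1.14 for ABG768_017620, -1.46 for ABG768_025088 and -1.46 for ABG768_008997.

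Of the 100 loci, 12 had 0 counts in cryopreserved 1, against 204 of the 15994 loci within the limits (1.28%). The control means of these 12 ran from 64.2 to 6977 normalised counts. The mean of cryopreserved 2 and 3 at the same loci was 1.71-fold to 3.19-fold below the control mean, except at ABG768_026654, where it was 11.2-fold below. The remaining counts and shares of this paragraph have 5 added to each value. More broadly, cryopreserved 1 lay under 0.25 times the lower of cryopreserved 2 and 3 for 28 of the 100 loci. It did so for 4.60% of the loci within the limits. A low value in cryopreserved 1 helps a locus to be chosen, so this excess is part of the description. Over all loci within the limits, 6.21% were below 0.25 times the control mean in cryopreserved 1, 0.631% in cryopreserved 2 and 0.0813% in cryopreserved 3. Values without that library are given beside the fitted fold changes and the counts at an unadjusted p. The 100 loci in those fits were still chosen with it. The share of counts and the spread within groups were not repeated without it.

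**Figure D3:**
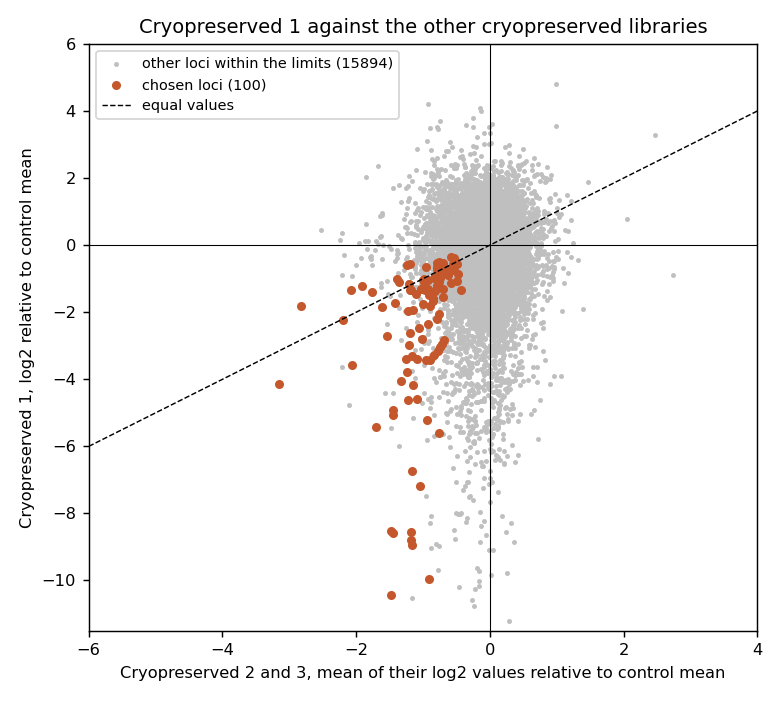
Log2 values relative to the control mean, each with 5 added, in cryopreserved 1 (vertical axis) against the mean of the log2 values of cryopreserved 2 and 3 (horizontal axis). Points are the 100 chosen loci and the other 15894 loci within the limits, and the dashed line marks equal values. Chosen loci lie to the left by the way they were chosen, and their spread along the vertical axis is far wider, down to -10.45 in cryopreserved 1.

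At the other end stood loci with small and even differences. Values within a group differed by less than 1.5 times in both groups for 23 of the 100 loci, against 12.8% of the loci within the limits, and by less than 1.25 times for 6. The following loci were picked out of these 6 after their values were seen. ABG768_026267 had 358, 391 and 386 in the controls and 254, 256 and 256 in the cryopreserved libraries. Its cryopreserved values were almost identical, and its fitted log2 fold change was -0.55 ± 0.34 (SE). ABG768_022109 had 328, 335 and 382 against 196, 191 and 219, and ABG768_003837 had 87.7, 87.5 and 94.4 against 52.2, 54.9 and 57.2. For 13 of the 100 loci the ratio between the groups was larger than the ratio of highest to lowest within either group, as it was for 14 of the 15994 loci within the limits. This ratio is the one that chose the loci. It tends to be larger where values within a group lie close together, so the choice also favours the even loci counted above.

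Within the list the controls did not hold the highest and lowest places equally often, which was not counted over all loci within the limits. Control 3 was the highest control for 50 of the 100 loci and the lowest for 21, while control 1 was the lowest for 45. The ratio of highest to lowest control, each with 5 added, had a median of 1.52 over the 100 loci and 1.74 over those within the limits. For the cryopreserved libraries these medians were 1.84 and 1.85. The controls of the 100 loci were thus closer together than those of the loci within the limits. The choice favours this, as a low lowest control lowers the ratio that ranked the loci.

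The same rule was then applied to 5 libraries, and the sixth, which had no part in the choice apart from the size factors, was read at the 100 loci so chosen. A value left out can take 6 places in the order of the other 5. Of these, 3 lie on the side of its own group, 2 between values of the other group and 1 beyond all of them. These places are not of equal width, as the loci were chosen for a wide gap between the groups. The library left out fell on its own side for 63 of the 100 loci for control 1 (95% Wilson interval 53.2% to 71.8%), 55 for control 2 (45.2% to 64.4%) and 41 for control 3 (31.9% to 50.8%). It did so for 63 loci for cryopreserved 1 (53.2% to 71.8%), 52 for cryopreserved 2 (42.3% to 61.5%) and 55 for cryopreserved 3 (45.2% to 64.4%). The intervals cover counting error only and are too narrow, since the 100 loci of a library share that library. The share of places on the own side is 50%, and the intervals are not set against it. A value left out that falls in the wide gap between the groups counts as own side, which raises the share. The 50% is therefore no chance level, and no conclusion is drawn from it. Over all loci within the limits, whether or not the other 5 libraries separated them, the own-side condition was met by 20.1% for control 1, 14.8% for control 2, 27.7% for control 3, 34.1% for cryopreserved 1, 23.2% for cryopreserved 2 and 18.9% for cryopreserved 3.

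**Figure D4:**
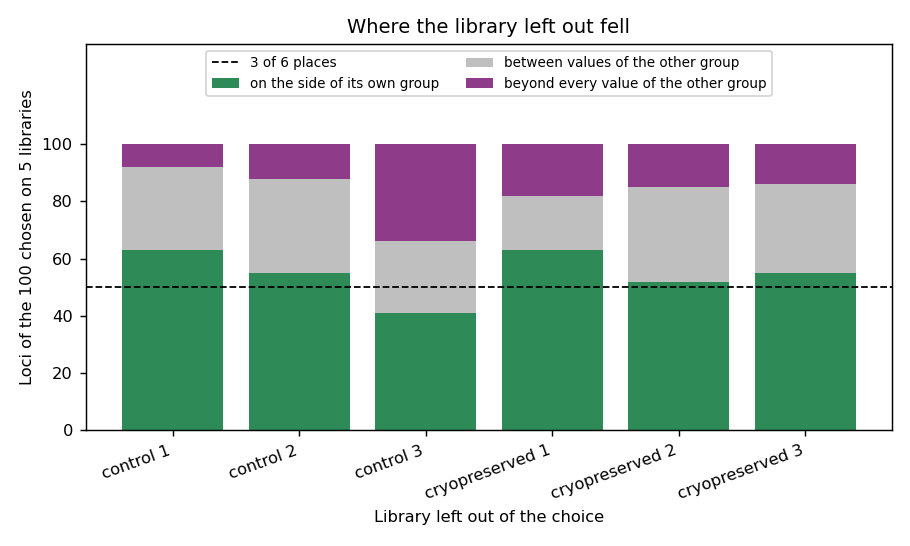
Bars give, for each library left out, how many of the 100 loci chosen on the other 5 had that library on the side of its own group, between values of the other group, or beyond every value of the other group. The dashed line marks 50, which stands for 3 of 6 places and is no chance level. The own-side bars run from 41 in control 3 to 63 in control 1 and cryopreserved 1.

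Among all loci that the other 5 libraries separated, and not just the first 100, the own side was less frequent. With control 1 left out, 849 loci were separated and 41.9% had control 1 on its own side. The values were 25.9% of 1411 loci for control 2, 27.8% of 1268 for control 3, 40.1% of 893 for cryopreserved 1, 22.9% of 1564 for cryopreserved 2 and 41.4% of 865 for cryopreserved 3. With a cryopreserved library left out, the loci on its own side are the 358 with a ratio above 1 in all 6 libraries. For controls 1, 2 and 3 they numbered 356, 366 and 352, as the limits then leave out a control. These shares thus largely restate the count of loci that all 6 libraries separate and are no separate result. For control 3 and cryopreserved 2 they were about those over all loci within the limits. At some of the same separated loci, the library left out lay beyond every value of the other group. This held in 14.8% for control 1, 18.8% for control 2 and 50.7% for control 3. It held in 34.8% for cryopreserved 1, 29.9% for cryopreserved 2 and 13.2% for cryopreserved 3. For control 3 and cryopreserved 2 this was more frequent than the own side. Among the first 100 loci, control 3 fell beyond every value of the cryopreserved group for 34 of its 100 loci. Cryopreserved 1 fell beyond every control for 18, against 8 to 15 in the other libraries. How often each library lies beyond the other group was not counted over all loci within the limits. The 16.7% for 1 of 6 places is no chance level, as the places are not of equal width.

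The size of the difference was also smaller in the library left out than in those that chose the loci. At the loci chosen without it, cryopreserved 1 had a median log2 value of -0.73 relative to the control mean, where the choosing libraries of its group had -1.10. For cryopreserved 2 these medians were -0.36 and -1.72, and for cryopreserved 3 they were -0.42 and -1.84. Control 1 was 0.65 above the cryopreserved mean on this scale, control 2 was 0.53 and control 3 was 0.10 above it. The choosing controls stood at 1.59, 1.40 and 1.46. A smaller value in the library left out follows from the choice. The other group, whose mean is the reference, also chose the loci. A library left out can therefore lie on the side of its own group without a difference of its own, and no size of effect is read from these medians. The lists themselves changed with the library left out. Between 33 of the 100 loci (without control 3) and 58 (without cryopreserved 1) were shared with the list from all 6 libraries.

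The 100 loci had lower counts than most. Their control mean had a median of 132 normalised counts, against 539 over the loci within the limits, and 38 of the 100 were below 100, against 8.88% of those within the limits. Control means above 1000 were found for 11 of the 100 and for 30.9% of the loci within the limits. Low counts carry a further limit here. Of the 48 values between 1 and 20 counts that the 100 loci had in any library, 72.9% were even numbers, and so were 64.4% of all such values in the table, so a deposited count cannot be taken as a single sequenced fragment.

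**Figure D5:**
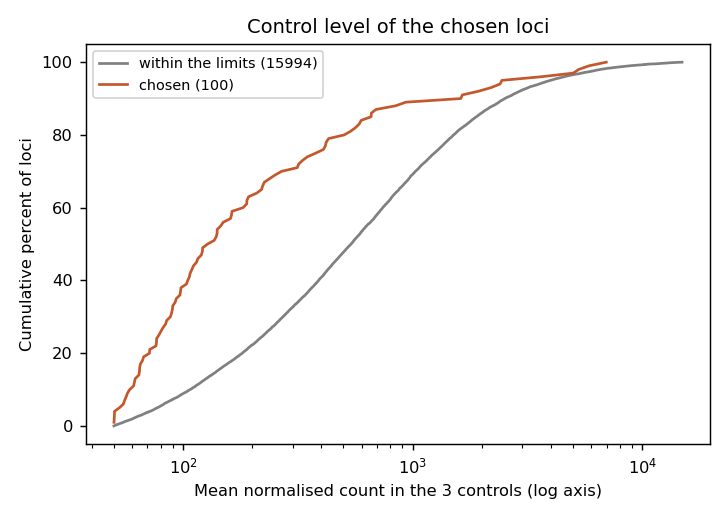
Cumulative percent of loci by mean normalised count in the 3 controls, on a log axis, for the 100 chosen loci and the 15994 loci within the limits. The curve of the chosen loci lies to the left over most of its range, with a median of 132 against 539.

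In the order of the annotation of assembly ASM4018292v1, 4 pairs of the 100 loci were direct neighbours. ABG768_025087 had 2519.8, 3836 and 4571 in the controls and 4.64, 1258 and 2037 in the cryopreserved libraries. Its neighbour ABG768_025088, described above, had the same order of libraries in both groups. ABG768_018092 had 1616, 2307 and 3289 against 11.6, 1230.5 and 1098, and its neighbour ABG768_018093 had 336, 379.9 and 510.0 against 48.7, 274 and 224. These pairs were low in cryopreserved 1 above all. The other pairs, ABG768_009896 with ABG768_009897 and ABG768_026087 with ABG768_026088, had fitted log2 fold changes of -0.80 with -1.34 and of -2.56 with -1.26. Sharing of reads between near-identical copies was not tested.

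Loci next to the 100 and outside the list had fitted changes centred where those of all loci were. Among 192 flanking loci outside the list, 157 could be tested, with a median fitted log2 fold change of 0.02 and quartiles at -0.23 and 0.28. Over all tested loci these values were 0.02, -0.23 and 0.29. Of 106 flanking loci within the limits on the controls, 1 had a ratio above 1 (0.943%), against 1.62% of the 15894 loci within the limits and outside the list. Both counts leave out loci of the list, and with them the 4 neighbouring pairs above. They therefore do not show how often loci with a ratio above 1 lie side by side.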

How the data were processed

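Poly-A RNA was sequenced on an Illumina platform after random-hexamer priming, as the protocols in the labels say. What the authors deposited is a single table of raw read counts per gene locus, with a column for each of 6 libraries per the file header. For the aligner, counting program, genome build, annotation and strandedness, the sources used here give nothing, so no coordinates or locus lengths were used, and the annotation of ASM4018292v1 served for names and the order of loci. Columns were matched to samples by title. The 100 loci and all lists were chosen with earlier results of these data known.

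Median-of-ratios size factors scaled the counts for the choice of loci. Differences were tested with the quasi-likelihood method of edgeR 4.0.16 in R 4.3.3, with TMM normalization and the default expression filter by group, over 21846 loci and all 6 libraries, with Benjamini-Hochberg adjustment and a threshold of 0.05. Standard errors are the fitted log2 value over the root of F. Alternatives were DESeq2 1.42.0, limma-voom (limma 3.58.1), other scalings, filters and pseudocounts, a replicate block, and fits without single libraries. The procedures were run on simulated data with planted changes, as a check of the code. For the rule, the simulated libraries of a group differed by their totals and counting noise alone. They therefore do not show how the rule performs on these libraries. Wilson intervals came from scipy 1.17.1. Every pair of libraries differed beyond sampling noise (lowest chi-square per locus 43.8). The rule for named loci took the 12 highest ratios, the 4 highest control means, the 4 smallest edgeR p and the loci at the limit of the list, 2 on each side. Neighbouring pairs and the loci with even values were named after their values were seen. Planned locus features other than position in the annotation order were not used, and no sequences were used.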

Additional observations from a re-analysis of the deposited data

How the results depend on the processing

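The number of loci past the threshold was 0 under each alternative but DESeq2, which called 5, with 0 of them lower in the cryopreserved group. The median log2 fold change of the 100 loci, -1.23 as reported, lay between -1.27 and -1.20 with the other tools, scalings and filters, 15 loci dropping out under the stricter filter. It was -1.47 to -0.97 on leaving out 1 library and -0.88 without control 3 and cryopreserved 1 together. All fitted values of the 100 loci stayed below 0, which the choice of loci fixes. The labels state no pairing of replicate numbers, and deviations from the group means were correlated at -0.14, -0.38 and -0.05 between libraries numbered 1, 2 and 3. With the replicate block the median was -1.28, with 0 calls. Of 21846 tested loci, 36 were lower at an unadjusted p under 0.05 in edgeR, 9 of them among the 100.

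The 358 loci with a ratio above 1 (2.24% of 15994) became 214 with a control mean of at least 200 (1.72% of 12437), which tests fewer loci. On leaving out 1 library there were 849 to 1564, or 5.13% to 9.78% of the loci within the limits. Without control 3 and cryopreserved 1 together, an alternative added after seeing the data, there were 2604 (14.3% of 18232). Of the first 100 loci of that alternative, 14 were in the list. Fewer libraries make the condition easier to meet. TMM scaling kept 96 of the 100 loci in the list and library size alone kept 68. By library size alone, 90 of the 100 had no overlap between groups, for which the rule had chosen them. Over all loci within the limits on that scaling, 413 of 15396 (2.68%) had a ratio above 1. On TMM scaling 311 of 16004 did (1.94%). Pseudocounts of 1 and 20 kept 98 and 96. On TMM scaling, own-side shares were 61%, 53% and 41% for controls 1, 2 and 3 left out. For cryopreserved 1, 2 and 3 they were 62%, 51% and 53%. With the first 50 loci they were 66%, 54% and 36% for the controls and 66%, 58% and 56% for the cryopreserved libraries. Both alternatives reuse the same libraries, and the 50 are part of the same 100, so they are no separate check. None of 255 alternative fits of the 20 named loci changed direction or side of the threshold. A ratio above 1 all but fixes the direction, and the lowest adjusted p was 0.247, so this says little on stability. Fitted sizes did move, from -5.09 to -1.11 for ABG768_008997 and from -9.42 to -3.41 for ABG768_026654. Others moved less, as ABG768_026087 did from -2.89 to -2.13.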

Other observations

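Among the 204 loci within the limits on the controls that had 0 counts in cryopreserved 1, chosen without regard to cryopreserved 2 and 3, both of these lay below every control for 23 (11.3%) and above every control for 6 (2.94%). Over all 15994 loci within the limits these shares were 5.58% and 3.05%. The 23 include the 12 loci of the list that had 0 counts in cryopreserved 1. The shares are therefore not separate from the list, and their difference was not tested. In the opposite direction to the 100 loci, 229 loci within the same limits (1.43%) had every cryopreserved value above every control, against 358 (2.24%) with every one below. The limits are set on the controls alone.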
